A study of Homo sapiens with 6 samples.

Results

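The genes described here are the 5 subunits of the transcription factor NF-kappaB (NFKB1, NFKB2, REL, RELA and RELB) and 5 genes grouped here with its feedback inhibitors (NFKBIA, NFKBIE, NFKBIZ, TNFAIP3 and BIRC3). That grouping is by name and does not give the effect of each gene in these cells. The genes were taken by gene symbol and are 10 of the 28278 symbols listed in the count files. All 10 passed the filter on low counts and are among the 15307 genes tested. RNA-Seq was made from HT29, a human colorectal adenocarcinoma line of epithelial morphology, 48 h after transfection. The 3 siALDOA libraries came from cells given an siRNA against ALDOA, the glycolytic enzyme aldolase A, and the 3 siControl libraries from cells given a scrambled siRNA. The labels name a single cell line, 1 siRNA treatment per group and biological replicates numbered 1 to 3, without saying whether these were separate cultures, so the p-values measure only the spread between these libraries. No untransfected cells were among the samples.

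NF-kappaB acts as pairs of subunits. In the classical branch, p50 (made from NFKB1) pairs with p65 (RELA) or c-Rel (REL), and I-kappaB proteins hold the pairs in the cytoplasm until the I-kappaB kinases mark them for degradation. In the alternative branch the kinase NIK (MAP3K14) drives the processing of p100 (NFKB2) to p52, which pairs with RELB. Many of the genes that restrain the pathway, among them NFKBIA and TNFAIP3, are themselves NF-kappaB targets, which is why they are called feedback inhibitors.

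Library totals ran from 27277538 to 33237914 counts, so that a level of 1 CPM (counts scaled to a common library size) stood for 27.8 to 33.0 counts. Ribosomal RNA genes took 13.1, 7.71 and 8.11% of the counts in siALDOA replicates 1, 2 and 3 and 17.4, 15.3 and 8.15% in siControl, so the share was high in siControl replicates 1 and 2 and lower in replicate 3. ALDOA, the target, fell from 632 CPM ± 38.2 to 289 CPM ± 13.7 (SD, n = 3 each), with no overlap of the groups (log2 fold change -1.13, SE 0.060, adjusted p = 6.95e-11). In GENCODE release 44, 42.8% of its merged exon bases are shared with a protein-coding gene on the same strand, ENSG00000285043, that is not listed in the files. Of the epithelial marker list, 9 of 10 genes could be tested, and LGALS4 was listed at 0. The list summed to 8387 to 8622 CPM with siALDOA and 9198 to 9664 CPM with siControl. Most of this was the keratins KRT8, at 5093 CPM with siALDOA and 5595 CPM with siControl, and KRT18, at 1910 and 2320 CPM. KRT18 was lower by the test (log2 fold change -0.28, adjusted p = 0.0152) and was the only call of this list. Of the 9 tested genes 1, EPCAM, lay above 0 (0.13, adjusted p = 0.224). Blood cell markers summed to 31.5 to 32.5 CPM with siALDOA and 26.1 to 30.1 CPM with siControl. Of these 16 markers 3 could be tested and CD14 was higher (0.32, adjusted p = 0.0485), while the pan-leukocyte gene PTPRC had at most 1 count in any library and CD3E, CD3D, MS4A1, TYROBP and S100A8 were listed at 0. Fibroblast and endothelial markers summed to at most 6.35 CPM, with 3 of 11 tested and PECAM1 lower (-1.23, adjusted p = 0.0429). PECAM1 was at a low level, 0.76 CPM ± 0.399 with siALDOA and 1.79 CPM ± 0.370 with siControl (SD, n = 3 each). Bulk counts of this single line do not separate a change in the make-up of the culture from a change in RNA per cell. The part of these marker shifts in the results below was not tested.

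Promoter sequence was examined first, since several of these genes are textbook targets of their own pathway. RefSeq windows on GRCh38.p14, from 250 bases before to 50 bases after an annotated start site, were found for 8 of the 10 genes, in 13 windows, with none for RELB and NFKBIE. The kappaB consensus, searched on both strands with overlapping matches counted, is 3 G, a purine, 2 bases of any kind, 2 pyrimidines and 2 C. It had at least 1 match in 7 of the 8 genes and 9 of the 13 windows, against 11.3% of all 35116 windows and 13.3% of the 27305 genes in the table. NFKB2 had 5 matches in 2 of its 3 windows, REL, NFKBIZ, TNFAIP3 and BIRC3 had 2 each, and NFKB1 and NFKBIA 1 each. RELA had none. The core of the interferon-stimulated response element (GAAANNGAAA) occurred in 3.57% of all windows and, among the 8 genes, in RELA alone. The sequences below show NFKB2, whose transcript rose with siALDOA, and 3 genes whose transcripts did not pass the test, with the kappaB matches in capitals. NFKB2 lies on the plus strand of chr10:102394446-102394534, NFKB1 on the plus strand of chr4:102501285-102501344, NFKBIA on the minus strand of chr14:35404796-35404855 and TNFAIP3 on the plus strand of chr6:137867167-137867238.
NFKB2: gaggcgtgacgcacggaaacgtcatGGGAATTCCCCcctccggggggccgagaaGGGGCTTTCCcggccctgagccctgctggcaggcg
NFKB1: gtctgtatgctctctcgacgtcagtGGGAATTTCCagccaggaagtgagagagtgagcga
NFKBIA: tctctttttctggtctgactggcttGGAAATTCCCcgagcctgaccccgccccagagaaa
TNFAIP3: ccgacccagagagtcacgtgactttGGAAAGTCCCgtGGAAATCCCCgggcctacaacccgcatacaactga
Matches were therefore present both in the gene that rose and in genes that did not pass the test. A match describes letters in the window and not a bound site.

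**Figure D1:**
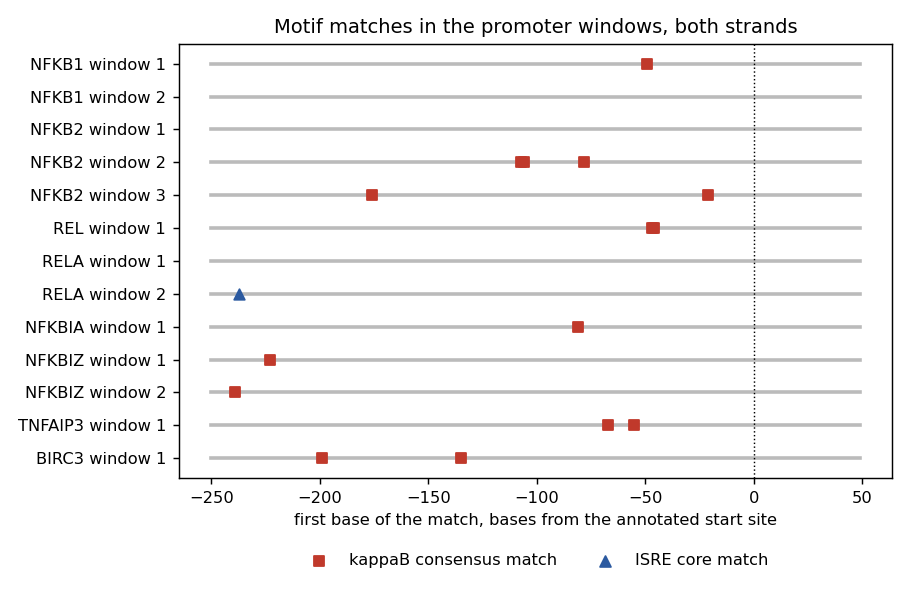
Position of each motif match in the RefSeq promoter windows of 8 genes (x axis, first base of the match in bases from the annotated start site; 1 line per window, windows numbered by genome coordinate). Squares are kappaB consensus matches, present in 9 of 13 windows, and the triangle is the interferon-stimulated response element core in RELA.

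Across the 10 genes, 3 rose with siALDOA and 0 fell at an adjusted p under 0.05 in edgeR's quasi-likelihood test with Benjamini-Hochberg adjustment. Over all 15307 tested genes 668 rose (4.36%) and 810 fell (5.29%), 9.66% in either direction. At an unadjusted p under 0.05, 4 of the 10 were higher, against 11.3% of all tested genes, and 1, NFKBIZ, was lower, against 12.3%. By the adjusted p, 0 of 10 fell under every other tool and setting tried. The groups did not overlap for 4 of the 10 genes, against 27.7% of all tested genes. The median log2 fold change of the 10 was 0.062, beside 0.0016 over all tested genes, and 6 of 10 lay above 0. The number of rises was 2 or 3 under the other tests, filters and scalings, but between 0 and 2 when a single library was left out. It was 0 without siALDOA replicate 2 and 0 without siControl replicate 3. It was 1 without siALDOA replicate 1, siALDOA replicate 3 or siControl replicate 2, and 2 without siControl replicate 1. Among the 10 genes, NFKBIE kept its call in 4 of these 6 fits, NFKB2 in 1 and RELB in 0.

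**Figure D2:**
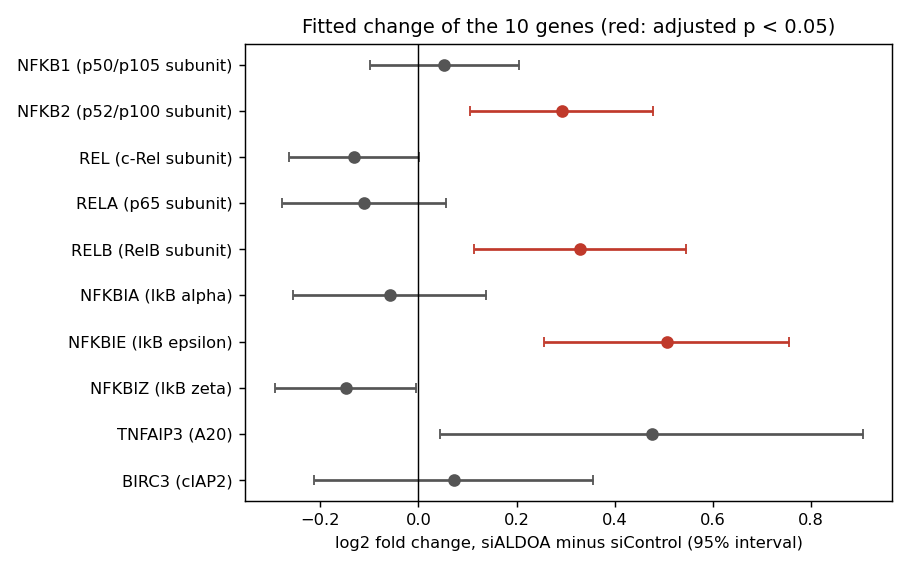
Fitted log2 fold change (siALDOA minus siControl, x axis) of the 10 genes with 95% intervals, with genes at an adjusted p under 0.05 in red. NFKBIE, RELB and NFKB2 lie above 0 at 0.51, 0.33 and 0.29, and the other 7 did not pass the test.

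Among the subunits of the alternative branch, both genes were called higher by a modest amount. Whether they differed from the subunits of the classical branch was not tested. NFKB2 (ENSG00000077150, chr10:102394110-102402524, plus strand), which encodes p100 and its product p52, was 29.3, 30.5 and 28.0 CPM in siALDOA replicates 1, 2 and 3 and 25.3, 25.4 and 21.0 CPM in siControl. Every siALDOA library lay above every siControl library, and siControl replicate 3 was the lowest. The means were 29.2 CPM ± 1.25 and 23.9 CPM ± 2.49 (SD, n = 3 each), a 1.22-fold difference (log2 fold change 0.29, SE 0.090, 95% interval 0.10 to 0.48, adjusted p = 0.0440). When single libraries were left out its adjusted p ran from 0.0429 to 0.260, and the call was kept in 1 of 6 cases, without siControl replicate 1.

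RELB (ENSG00000104856, chr19:45001461-45038192, plus strand), the partner of p52, was 15.2, 15.6 and 14.9 CPM with siALDOA and 11.3, 12.7 and 12.4 CPM with siControl. The 3 siALDOA libraries were close together and all above siControl. Its means were 15.2 CPM ± 0.326 and 12.1 CPM ± 0.764 (SD, n = 3 each), 1.26-fold higher (log2 fold change 0.33, SE 0.10, 95% interval 0.11 to 0.55, adjusted p = 0.0489). The call stood at the threshold. It was lost with limma-voom (adjusted p = 0.0540) without the filter on low counts (0.0520) and with at least 10 counts required in every library (0.05001), and in all 6 cases with a library left out (0.0720 to 0.148), with the direction unchanged in each.

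The subunits of the classical branch did not pass the test. NFKB1 (ENSG00000109320, chr4:102501330-102617302, plus strand), the source of p50, was 38.4, 36.6 and 38.4 CPM with siALDOA and 38.6, 35.3 and 35.4 CPM with siControl. The groups overlapped, and the difference was small with a narrow interval (log2 fold change 0.05, SE 0.073, 95% interval -0.10 to 0.20, adjusted p = 0.722). With a library left out the log2 fold change ran from 0.029 to 0.096, and under the other settings it reached 0.13.

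RELA (ENSG00000173039, chr11:65653599-65663090, minus strand), which encodes p65, was 72.4, 95.2 and 91.2 CPM with siALDOA and 93.2, 89.3 and 96.9 CPM with siControl. The siALDOA replicate 1 library stood below the other 5, and the groups overlapped. The fitted log2 fold change was -0.11 (SE 0.080, 95% interval -0.28 to 0.057, adjusted p = 0.443), and it was 6.83e-05 without that library and -0.04 with library totals only.

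REL (ENSG00000162924, chr2:60881491-60931612, plus strand), which encodes c-Rel, was 125, 137 and 120 CPM with siALDOA and 131, 145 and 142 CPM with siControl. The groups overlapped (log2 fold change -0.13, SE 0.063, adjusted p = 0.220), and with library totals only the log2 fold change was -0.06. In GENCODE release 44, 33.3% of the merged exon bases of REL are shared with a long non-coding RNA on the same strand that is not listed in the files, so reads on those bases cannot be told apart.

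**Figure D3:**
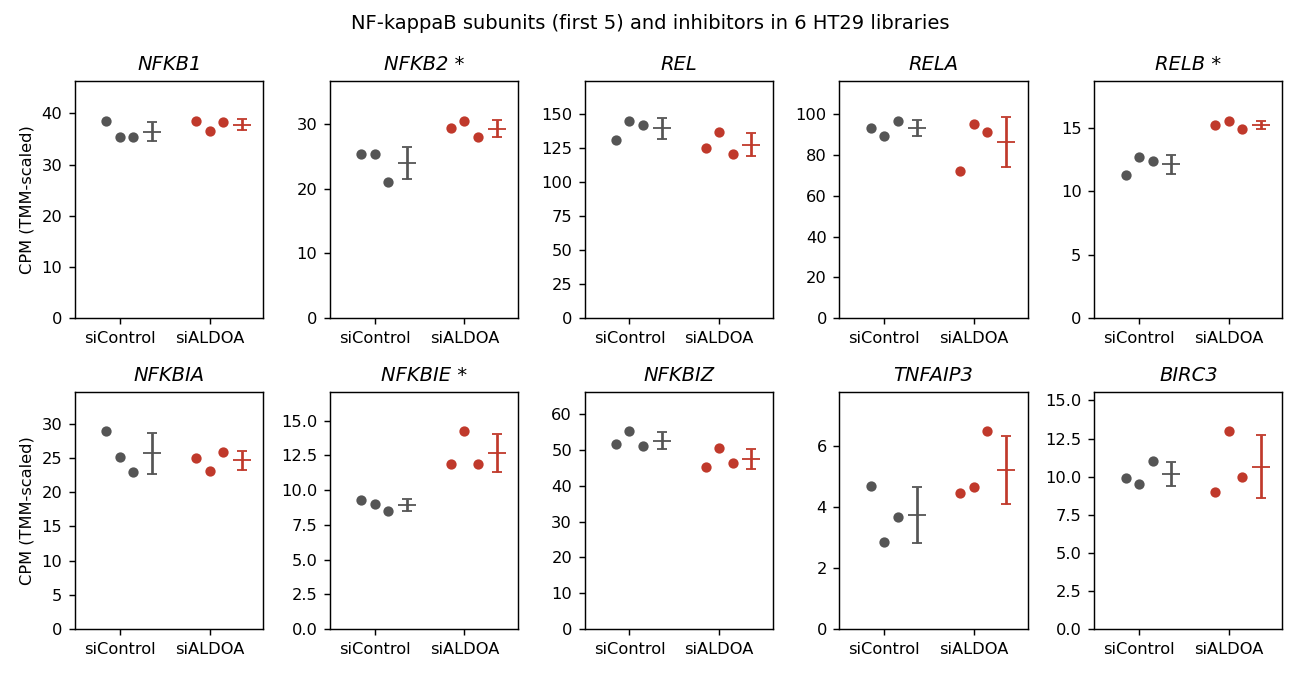
CPM (y axis, TMM-scaled, each panel from 0) of the 10 genes in the 3 siControl (grey) and 3 siALDOA (red) libraries, in replicate order, with mean and SD beside the points and an asterisk at an adjusted p under 0.05. The groups are apart and higher with siALDOA for NFKB2, RELB and NFKBIE, apart and lower for NFKBIZ without passing the test, and overlapping for the other 6.

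Of the I-kappaB genes, only NFKBIE passed the test. NFKBIE (ENSG00000146232, chr6:44258166-44265788, minus strand), which encodes I-kappaB epsilon, an inhibitor that holds p65 and c-Rel pairs, was 11.9, 14.2 and 11.9 CPM with siALDOA and 9.30, 9.01 and 8.47 CPM with siControl. All siALDOA libraries exceeded all siControl libraries, and siALDOA replicate 2 was the highest. The means were 12.7 CPM ± 1.37 and 8.93 CPM ± 0.423 (SD, n = 3 each), 1.42-fold higher (log2 fold change 0.51, SE 0.12, 95% interval 0.26 to 0.76, adjusted p = 0.00902). Behind these levels stood 331, 428 and 337 counts per siALDOA library against 290, 275 and 279 per siControl library. The adjusted p was 0.00107 to 0.0121 under the other tests, filters and scalings. It missed the threshold without siALDOA replicate 2 (0.0664) and without siControl replicate 3 (0.0530).

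NFKBIA (ENSG00000100906, chr14:35401079-35404749, minus strand), which encodes I-kappaB alpha, the best known feedback inhibitor, was 25.0, 23.1 and 25.9 CPM with siALDOA and 28.9, 25.1 and 23.0 CPM with siControl. The groups overlapped. The log2 fold change was -0.06 (SE 0.094, 95% interval -0.25 to 0.14, adjusted p = 0.764), and it was 0.019 with scaling by library totals only and 0.035 without siControl replicate 1.

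NFKBIZ (ENSG00000144802, chr3:101827991-101861022, plus strand), which encodes the nuclear I-kappaB zeta, was 45.4, 50.7 and 46.5 CPM with siALDOA and 51.6, 55.3 and 51.2 CPM with siControl. Every siALDOA library was below every siControl library, yet the difference missed the threshold (log2 fold change -0.15, SE 0.069, unadjusted p = 0.0446, adjusted p = 0.197). With library totals only it was -0.07 (adjusted p = 0.689). It shares 3.29% of its merged exon bases with NXPE3 on the same strand.

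TNFAIP3 (ENSG00000118503, chr6:137867214-137883314, plus strand), which encodes the ubiquitin-editing enzyme A20, was 4.45, 4.66 and 6.48 CPM with siALDOA and 4.68, 2.85 and 3.67 CPM with siControl. It was the least abundant of the 10, at 87 to 184 counts per library, and its groups overlapped. The fitted log2 fold change was 0.47 with a wide interval of 0.044 to 0.91 (SE 0.21, adjusted p = 0.163), so a difference of that size was not resolved at this depth and replicate number. The log2 fold change was 0.29 without siALDOA replicate 3 and 0.31 without siControl replicate 2, the cases that moved it by over 1.5 times.

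BIRC3 (ENSG00000023445, chr11:102317484-102339403, plus strand), which encodes the ubiquitin ligase cIAP2, was 9.02, 13.0 and 9.96 CPM with siALDOA and 9.91, 9.50 and 11.0 CPM with siControl. The groups overlapped, with siALDOA replicate 2 the highest. The log2 fold change was 0.07 (SE 0.14, 95% interval -0.21 to 0.36, adjusted p = 0.804), and -0.10 without that library.

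Levels of different genes were compared per kilobase of merged exons, in CPM per kb. With siControl, RELA was highest at 17.1 ± 0.695, followed by NFKBIZ at 8.93 ± 0.381, REL at 8.14 ± 0.440 and NFKBIA at 7.57 ± 0.888 (SD, n = 3). NFKB2 at 4.28 ± 0.447, RELB at 4.04 ± 0.255, NFKBIE at 3.46 ± 0.164 and NFKB1 at 2.32 ± 0.119 came next, and BIRC3 at 1.36 ± 0.105 and TNFAIP3 at 0.580 ± 0.142 were lowest. The values of REL and NFKBIA overlapped between libraries, as did those of NFKB2 and RELB. RELA was highest and TNFAIP3 lowest with either length tried. The order between them depended on the length. NFKBIA, at 16.5 CPM per kb of canonical transcript, stood above NFKBIZ at 13.4 and REL at 12.6. The place of NFKB1 changed too, because its merged exons come to 15679 bases and its canonical transcript to 4055, and per kb of canonical transcript it was 8.98 CPM, above NFKB2 at 7.93.

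Ratios between genes within a library need no scaling between libraries. These 4 ratios of CPM per kb of merged exons were chosen after the values were seen and carry no test. Their size depends on the length used, since NFKB2 and NFKB1 averaged 9.70 and 9.32 CPM per kb of canonical transcript with siALDOA and 7.93 and 8.98 with siControl, but the length scales every library alike. NFKB2 to NFKB1 was 2.14, 2.34 and 2.05 with siALDOA and 1.84, 2.02 and 1.67 with siControl. RELB to RELA was 0.382, 0.298 and 0.298 with siALDOA and 0.220, 0.259 and 0.233 with siControl. NFKBIE to NFKBIA was 0.624, 0.812 and 0.603 with siALDOA and 0.423, 0.471 and 0.485 with siControl. In each of these, and for NFKBIE to RELA (0.313 ± 0.0364 against 0.203 ± 0.0158, SD, n = 3), the siALDOA libraries lay above all siControl libraries. Since each ratio sets a gene already seen to be higher over one that was not, this adds no support to the calls. The first of the RELB to RELA values is the library in which RELA was low.

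The genes whose log2 CPM over the 6 libraries ran closest to each gene that rose are given as a description. For RELB they were PSMB8, an immunoproteasome subunit (Pearson r = 0.995), ATP6V1C2 (0.995) and PLAAT4 (0.993). For NFKBIE they were DGKE (0.992), ZNF816-ZNF321P (0.990) and ABO (0.989), and for NFKB2 they were PLEKHA2 (0.992), CAT (0.988) and MOSPD2 (0.986). The search covered the 10079 genes averaging 10 CPM or more, and the 6 points share the group difference and the library sizes.

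Upstream of these genes, 17 of 26 listed receptors and ligands could be tested, and 1 rose and 3 fell (median log2 fold change -0.06). For this and the next lists, the shares over all tested genes were 4.36% rising and 5.29% falling, and with the replicate number as a block 6.45% and 7.68%. TNFSF10, the death ligand TRAIL, was 23.5, 29.9 and 34.3 CPM with siALDOA and 12.9, 12.9 and 14.1 CPM with siControl (1.13, SE 0.12, adjusted p = 9.13e-07), with no overlap. TNFRSF12A, the receptor of TWEAK (-0.31, adjusted p = 0.00714), TNFRSF10B, a TRAIL receptor (-0.23, adjusted p = 0.0297), and TNFRSF21 (-0.20, adjusted p = 0.0336) fell. With the replicate number as a block, 2 receptor and ligand genes rose, the second being LTBR, the lymphotoxin beta receptor (0.17, adjusted p = 0.0356). TNF itself had at most 4 counts in a library, and IL6, CCL2, CD40 and TLR2 were listed at 0. NFKBIB, a further I-kappaB gene, was listed at 0 in all 6 libraries, as was EIF3K, a translation initiation factor subunit that cells generally express, so a listed 0 cannot be read as a level here.

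Of the adaptors and ubiquitin ligases 25 of 26 were tested, 1 rose and 3 fell (median 0.0020). MYD88, the adaptor of Toll-like and IL-1 receptors, rose (0.47, adjusted p = 5.37e-04), while CARD9 (-0.34, adjusted p = 0.00992), MAVS, the mitochondrial adaptor of RNA sensors (-0.22, adjusted p = 0.0185), and CARD10 (-0.26, adjusted p = 0.0296) fell. With the replicate block 2 rose, TRAF2 (0.25, adjusted p = 0.0498) beside MYD88, and 4 fell, IRAK1, a kinase of the same receptors (-0.21, adjusted p = 0.0108), being added. Of the 12 kinases 0 rose and 0 fell in edgeR and under every other tool tried, and 2 were higher at an unadjusted p under 0.05. These were MAP3K14, the kinase NIK of the alternative branch (0.34, adjusted p = 0.0928), and IKBKE (0.31, adjusted p = 0.149), and the groups did not overlap for either. These shares, 2 of 12, stand beside 11.3% of all tested genes higher at that p and 27.7% without overlap.

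Among the other inhibitors 14 of 18 were tested, 2 rose and 2 fell (median -0.05). TNIP1 (-0.44, adjusted p = 1.80e-04) and TAX1BP1 (-0.39, adjusted p = 1.41e-04), both partners of A20, fell. CYLD, a deubiquitinase (0.32, adjusted p = 0.0472), and N4BP1 (0.24, adjusted p = 0.0319) rose. CYLD lost the call in each of the 6 fits with a library left out (adjusted p up to 0.152).

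Downstream, 26 of 36 listed NF-kappaB target genes were tested, 2 rose and 2 fell (median -0.02, against 0.0016 for all tested genes). IRF1, a transcription factor also induced by interferon (0.39, adjusted p = 0.00196), and CFLAR, which encodes the caspase-8 inhibitor FLIP (0.21, adjusted p = 0.0342), rose. PLAUR, the urokinase receptor (-0.35, adjusted p = 0.0143), and IL32 (-0.71, adjusted p = 0.0234), a cytokine at 2.62 CPM ± 0.164 and 4.27 CPM ± 0.212 (SD, n = 3), fell. With the replicate block 4 target genes fell, LCN2 (-0.20, adjusted p = 0.0165) and NINJ1 (-0.28, adjusted p = 0.0445) being added. CCL20, a chemokine on the list, was under the filter on low counts and so not tested, with 22, 15 and 8 counts in the siALDOA libraries and 2, 2 and 3 in siControl. CCL20 was called higher with the filter lifted and without siALDOA replicate 3, siControl replicate 1 or siControl replicate 3. It was not called in the other fits with a library left out. It passed the filter only through the group where it was high, so no rise is read from this.

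Most of the falls named in these lists lost their call with scaling by library totals only. With scaling by upper quartile or RLE size factors, the falls called with TMM in these lists kept their call. With library totals only, 0 receptors and ligands, 0 adaptors and 0 target genes fell, while the log2 fold changes of the 8 genes of these lists that fell with TMM stayed below 0, between -0.12 for TNFRSF21 and -0.63 for IL32 (adjusted p = 0.0596). TNIP1 (-0.37, adjusted p = 0.00639) and TAX1BP1 (-0.32, adjusted p = 0.00932) still fell. In that scaling 76.3% of all calls were higher, against 45.2% with TMM. Of the list genes named with a call, TNFSF10, TNFRSF12A, MYD88, TNIP1, TAX1BP1 and IRF1 kept it with each of the 6 libraries left out in turn. CARD9 kept it in 5 of the 6 fits, MAVS and PLAUR in 4, TNFRSF10B in 2, TNFRSF21, CARD10, N4BP1, IL32 and CFLAR in 1 and CYLD in 0, with the direction unchanged in each.

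In the same libraries all 15 genes of the interferon response list rose, by 0.27 to 2.32 on the log2 scale (median 1.23). They summed to 4055 to 4965 CPM with siALDOA and 1820 to 2049 CPM with siControl. This shift lay between the same 2 groups as the rises of NFKB2, RELB and NFKBIE, and its part in them was not tested.

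**Figure D4:**
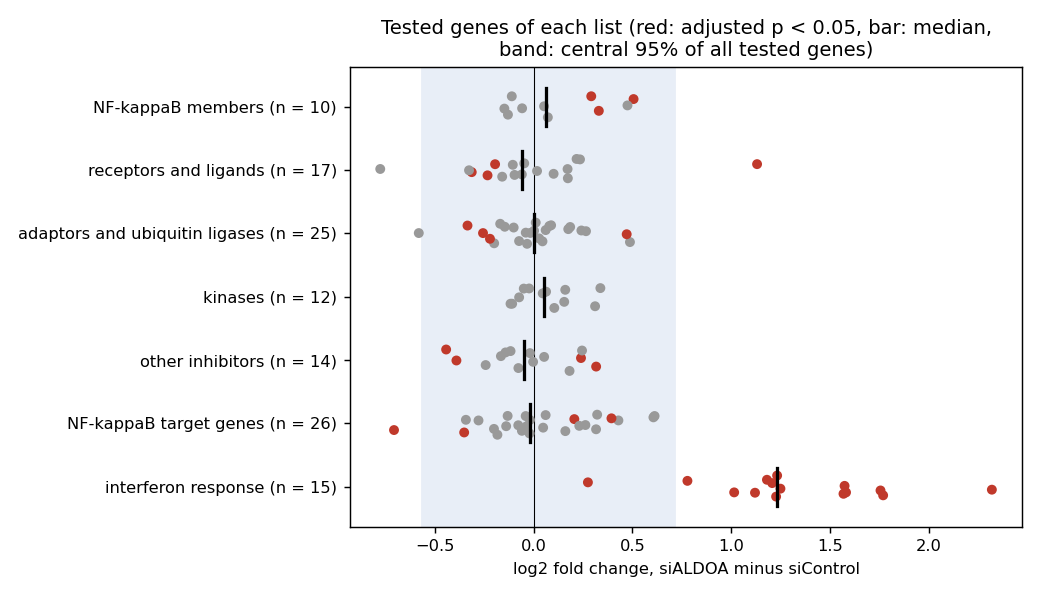
Log2 fold change (x axis) of each tested gene of the pathway lists, with genes at an adjusted p under 0.05 in red, the median of each list as a bar and the band holding the central 95% of all tested genes. The 10 NF-kappaB genes lie inside the band with 3 in red, whereas the 15 interferon response genes are all red with a median of 1.23.

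**Figure D5:**
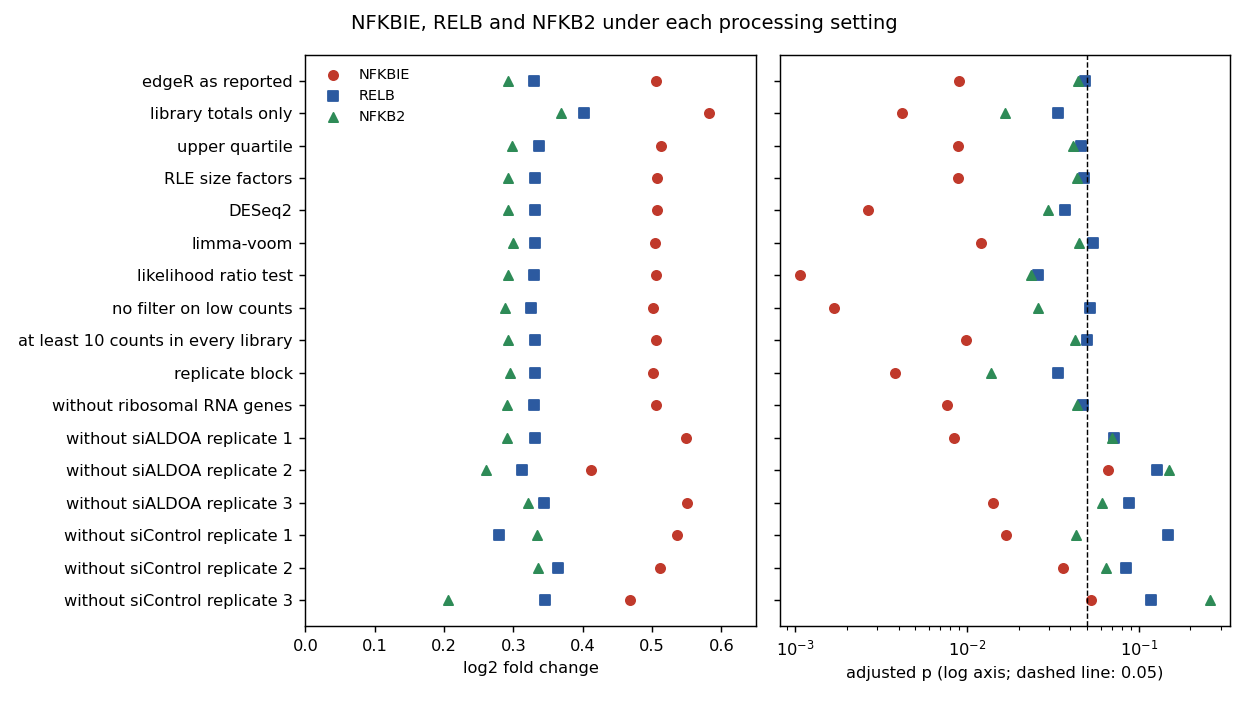
Log2 fold change (left) and adjusted p (right, log axis, dashed line at 0.05) of NFKBIE, RELB and NFKB2 under each processing setting. All log2 fold changes stay above 0.20, while adjusted p values cross the dashed line mainly when a library is left out.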

How the data were processed

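Per the labels and the study's methods, the authors used TopHat2 for alignment of paired-end reads on hg38 and then counted reads per gene symbol. The deposited files hold these raw counts, 1 file per library, without normalization. The annotation, strand setting and treatment of reads with several matches are not given in the sources used here. Counts were analysed in R 4.3.3 with edgeR 4.0.16 (filterByExpr, TMM, quasi-likelihood F-test, Benjamini-Hochberg adjustment over 15307 genes, threshold 0.05), without covariates. Each SE was obtained from the log2 fold change and its F statistic, as their quotient after taking the root of F. Alternatives used limma 3.58.1 and DESeq2 1.42.0. Lengths and exon overlaps came from GENCODE release 44. The fitting script was tested on simulated data.

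The members and lists were chosen with earlier results of these data known. Named genes were all 10 members, ALDOA, up to 4 genes of smallest p with an adjusted p under 0.05 in each pathway list, and the 3 genes most like each member that passed. The kinases, low or unlisted genes, called markers and the genes added by the block were named after their values were seen. The canonical length and the ratios between members were also added after the data were seen. Shares of each subunit in the summed subunit level were computed too and are not reported, since they depend on the length used. Same-numbered libraries of the groups deviated together (r = 0.212, 0.138 and 0.208 over 10079 genes), but the labels do not state a pairing. The main test therefore used no block, and a fit with the replicate number as a block was run as an alternative. siALDOA replicate 2 correlated slightly better with siControl replicate 3 (0.146) than with its own number. No libraries were identical.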

Additional observations from a re-analysis of the deposited data

How the results depend on the processing

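With 3 libraries per group, single libraries decided several calls. Leaving out each library gave 359 to 644 rises and 471 to 790 falls over all genes, and 0 to 2 rises among the 10 NF-kappaB genes. For the lists it gave 1 to 2 rises and 1 to 2 falls for receptors and ligands, 1 to 2 rises and 1 to 4 falls for adaptors, 0 to 1 rises for other inhibitors, and 1 to 2 rises and 0 to 2 falls for target genes. Scaling by library totals only gave 279 falls over all genes and 0 falls among receptors and ligands, adaptors and target genes. It turned NFKBIA from -0.06 to 0.019, while the median over all tested genes went from 0.0016 to 0.075, and the cause was not tested. With a library left out, log2 fold changes ran from -0.19 to 6.83e-05 for RELA (highest without siALDOA replicate 1), -0.13 to 0.035 for NFKBIA (highest without siControl replicate 1) and -0.10 to 0.18 for BIRC3 (lowest without siALDOA replicate 2), none of them a call. DESeq2 and the unadjusted p under 0.01 each gave 2 rises among receptors and ligands, and limma-voom and no filter each gave 1 among other inhibitors. The replicate block gave 987 rises and 1175 falls over all genes, 2 rises each among receptors and ligands and adaptors, and 4 falls each among adaptors and target genes. It kept the calls of NFKBIE (adjusted p = 0.00380), NFKB2 (0.0137) and RELB (0.0339) and changed no call among the other 7 NF-kappaB genes. Within-library ratios, added after the data were seen and no separate support for the calls, gave log2 differences of 0.24 for NFKB2 to NFKB1, 0.45 for RELB to RELA, 0.55 for NFKBIE to NFKBIA and 0.62 for NFKBIE to RELA. Per kb of canonical transcript, also added, siControl levels were RELA 37.0, NFKBIA 16.5, NFKBIZ 13.4, REL 12.6, NFKB1 8.98, NFKB2 7.93, RELB 5.37, NFKBIE 3.81, BIRC3 1.47 and TNFAIP3 0.801 CPM per kb.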
